A study of Gallus gallus with 2 samples.

Results

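The nuclear genes of the mitochondrial respiratory chain and ATP synthase were compared between thalidomide-treated and vehicle-treated chick limb bud tissue. They were taken by name: every gene outside the mitochondrial genome whose symbol starts with NDUF, SDHA to SDHD, UQCR, CYC1, COX4 to COX8 or ATP5. This gave 62 genes of the 16737 in the files, and all 62 reached the level asked for, 1 FPKM or more in one of the libraries. FPKM is the number of sequenced fragments per kilobase of transcript, scaled to the depth of the library. By prefix, 34 genes belong to complex I, 4 to complex II, 5 to complex III, 7 to complex IV and 12 to complex V. These genes do not include every subunit, so values for a complex cover only the genes found by name.

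Both libraries came from limb buds of chick embryos (Gallus gallus) at Hamburger-Hamilton stage 22, day 4. The buds were cut into pieces that were divided between the treatments. One library is from pieces kept 4 h at 37 °C with thalidomide at 40 µg/ml, and the other is from pieces kept as long with the vehicle, 5% DMSO. The labels give no strain, sex or number of embryos, and leave unstated if DMSO was also in the thalidomide medium. Thalidomide, once a sedative, disturbs limb growth in embryos, and its known target is the ubiquitin ligase receptor cereblon. With 1 library for each treatment there are no replicates and no test between treatments: every difference below describes these libraries.

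The respiratory chain sits in the inner mitochondrial membrane. Complexes I and II pass electrons from NADH and succinate to ubiquinone, complex III passes them on to cytochrome c, and complex IV, cytochrome c oxidase, passes them to oxygen. Complexes I, III and IV pump protons as they do so, and complex V, the ATP synthase, lets the protons back to make ATP. Complex II is built from nuclear genes alone, whereas the other complexes combine nuclear subunits with a few encoded in the mitochondrial genome.

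The libraries had similar totals of inferred fragments. Read as counting error, the deposited confidence limits give 23260863 fragments with thalidomide and 23342009 with vehicle. These totals are too low where fragment assignment is uncertain, so their likeness need not mean equal depth. Such fragments did not keep a fixed proportion to FPKM. SDHA of complex II had 5109 with thalidomide and 5101 with vehicle, at 43.8 and 47.2 FPKM. NDUFA1 of complex I had 981 and 1272, at 124 and 159 FPKM. How far this bears on the FPKM ratios below was not tested. An FPKM of 1 was reached by 10725 and 10751 genes. The FPKM values summed to 384280 with thalidomide and 426632 with vehicle, and transcripts of the mitochondrial genome took 11.3% and 8.94% of these sums. Of 9 limb mesenchyme markers, 8 were kept, led by PRRX1 with 185 FPKM in the thalidomide library and 217 in the vehicle library, while HOXA11 is listed at 0 in both. Of these 8, 5 were lower with thalidomide and 3, TBX5, TBX4 and HOXD11, were higher. Markers of other cell types were also present: ectoderm (summed FPKM 35.1 with thalidomide and 40.7 with vehicle), muscle precursors (33.5 and 36.3), endothelium (28.2 and 33.9), macrophages (2.99 and 3.15) and neural cells (68.3 and 79.7). These lists were not uniform. Of the genes kept, 3 were lower and 1 higher in ectoderm and in endothelium, 3 and 2 in muscle precursors, and 2 and 1 in macrophages. The higher ones include KDR of endothelium (4.11 FPKM with thalidomide and 3.64 with vehicle) and PTPRC of macrophages (1.07 and 0.719). Within the neural list TUBB3 was lower (58.6 FPKM with thalidomide and 71.5 with vehicle), while SOX10 and NEFL were higher. Of the heart muscle list (34.1 and 44.1) NKX2-5 and MYH7 stayed under 1 FPKM in both libraries, and most of the sum was ACTC1 (26.4 and 35.8), which embryonic skeletal muscle also expresses. Of the 5 erythroid markers matched, 4 haemoglobin genes were higher with thalidomide, with a summed FPKM of 360.0 against 266, and HBZ is listed at 0 in both. Such tissue is a mixture, so fewer cells of a type and less RNA per cell cannot be told apart, and the part of cell composition in the results below was not tested.

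Respiratory chain mRNAs ranged over more than 2 orders of magnitude between genes and kept nearly the same order in both libraries. Levels ran from 5.10 FPKM (NDUFAF2) to 545 FPKM (ATP5B) with thalidomide, and from 6.22 FPKM (NDUFAF2) to 701 FPKM (ATP5B) with vehicle. NDUFAF2, an assembly factor of complex I, was thus the gene nearest to the filter, well inside it, and no gene with these prefixes lay below it. Median levels differed by complex. Complex I genes had a median of 49.9 FPKM with thalidomide and 54.5 with vehicle. Complex II genes had 45.2 and 54.0, complex III genes 92.6 and 109, complex IV genes 154 and 192, and complex V genes 129.6 and 157. Together the 62 genes held 1.58% of the FPKM sum with thalidomide and 1.80% with vehicle, or 1.78% and 1.97% once the mitochondrial genome was left out.

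**Figure D1:**
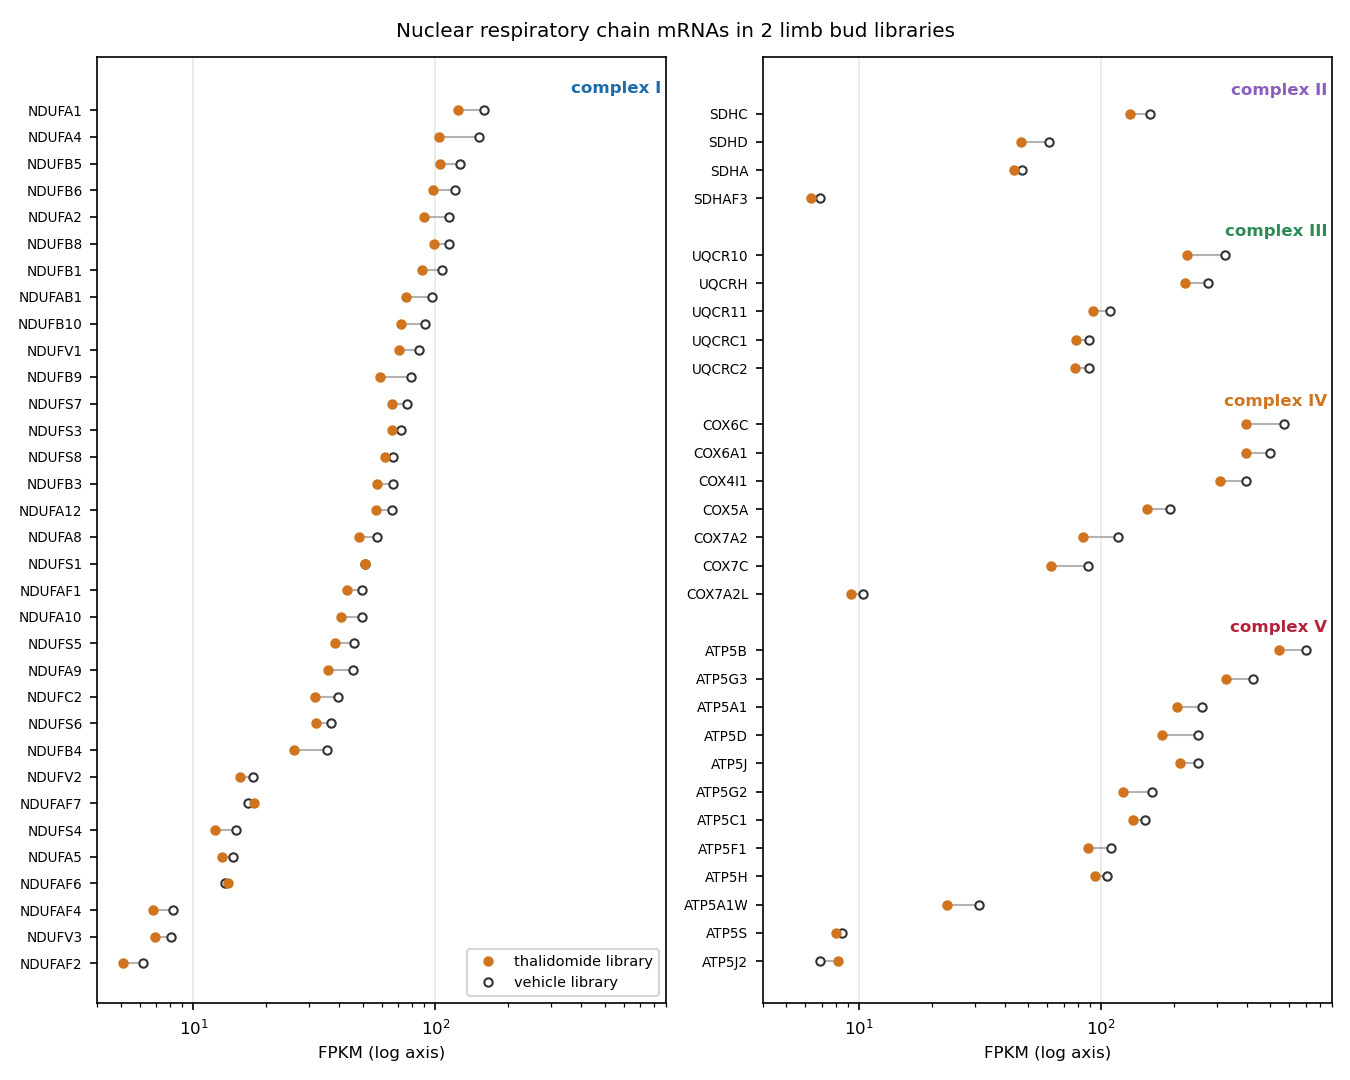
FPKM of 61 of the 62 nuclear respiratory chain genes (log axis), by complex and in order of the vehicle level; filled points are the thalidomide library, open points the vehicle library, and a line joins the 2 values of a gene. The filled point lies left of the open one for 58 genes, though on top of it for NDUFS1, and right of it for NDUFAF6, NDUFAF7 and ATP5J2.

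The nuclear respiratory chain genes were slightly and broadly lower in the thalidomide library. The log2 ratio of thalidomide over vehicle, taken after adding 1 to each FPKM, was below 0 for 59 of the 62 genes and above 0 for 3, where 59% of the 10906 genes kept in all were below 0 and 41% above. Its median was −0.27 (16.9% lower) with quartiles of −0.35 and −0.19, beside a median of −0.05 and quartiles of −0.19 and 0.11 over all genes kept. At least 20% lower on that scale were 22 of the 62 genes (35.5%), against 8.71% of all genes kept, and 0 were at least 25% higher, the same distance upwards, against 6.14%. No member reached 1.5-fold in either direction, where 0.972% of all genes kept were lower and 0.954% higher. The deposited confidence limits of both libraries lay apart, with thalidomide lower, for 50 members (80.6%), against 26.9% of all genes kept. They lay apart with thalidomide higher for 0 members, against 15.5%, and apart in either direction for 50 members, against 42.4%. These limits cover counting and fragment assignment only, and the members rested on 131 to 41689 inferred fragments a library.

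The size of this difference depended on the scaling of the libraries. With both rescaled to the same FPKM total, which moved the median of all genes by 0.13, 53 members were lower and 9 higher, where 34.6% of all genes kept were lower. At least 20% lower were 6 members, against 2.58% of all genes, and 1 was at least 25% higher, against 14.8%. With the rescaling made without the mitochondrial genome, which moved it by 0.16, 47 were lower and 15 higher, where 28.5% of all genes kept were lower. Then 4 members were at least 20% lower, against 2.04% of all genes, and 1 at least 25% higher, against 18.1%. The members' median minus that of all genes was −0.22 on the log2 scale as deposited and −0.20 under either rescaling. The 15 genes above 0 under the second rescaling were 10 structural subunits and 5 assembly factors or related proteins. They include SDHA, NDUFS1, NDUFS3, NDUFS8, NDUFV2, UQCRC1, COX7A2L, ATP5C1, ATP5H and NDUFA5, so the lower values given for these below hold for the values as deposited.

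Abundance went with the ratio, both among these genes and among all genes. Over the 62 members, which share their libraries and hence their depth, Spearman's rho of the log2 ratio with the mean FPKM was −0.55. Over the 10906 genes kept it was −0.26. Within bands of mean FPKM the members were nearer to the other genes. Between 5 and 20 FPKM, 12 members had a median of −0.15, against −0.02 for all 4555 genes of that band. Between 20 and 50 FPKM, 10 members had −0.28 and all 1863 genes −0.11. Between 50 and 100 FPKM, 17 members had −0.24 and all 618 genes −0.18. Between 100 and 200 FPKM, 13 members had −0.30 and all 252 genes −0.23, and between 200 and 1000 FPKM 10 members had −0.36 and all 163 genes −0.24. Going up the bands, 0 of 12, 3 of 10, 5 of 17, 5 of 13 and 9 of 10 members were at least 20% lower, against 6.17%, 10.3%, 17.0%, 23.4% and 28.8% of all genes in the same band. Over all 5 bands 50 of 62 members lay below the median of their band.

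Transcript length was not given in the files, so the number of inferred fragments for each unit of FPKM was used as a stand-in. Its median was 34.6 for the members and 87.9 for all genes kept, so by this stand-in the members were short as well as abundant. The stand-in also falls where fragment assignment is uncertain. It had a median of 0.441 for the mitochondrially encoded COX1 and COX3, against 49.1 for cytb, so it is a rough guide to length. In bands of the stand-in alone, the members had a lower median log2 ratio than all genes compared throughout. Under 10 such fragments, 3 members had −0.35 and 160 genes −0.20. From 10 to 20, 13 members had −0.30 and 336 genes −0.20. From 20 to 40, 20 members had −0.24 and 1057 genes −0.16. From 40 to 80, 15 members had −0.26 and 2096 genes −0.09. From 80 upwards, 11 members had −0.24 and 3858 genes −0.03. Among genes with a mean of 50 to 200 FPKM and 10 to 40 such fragments, 17 members had a median log2 ratio of −0.27 and all 314 genes had −0.23. The parts of abundance and length in the lower values of the members were not tested.

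**Figure D2:**
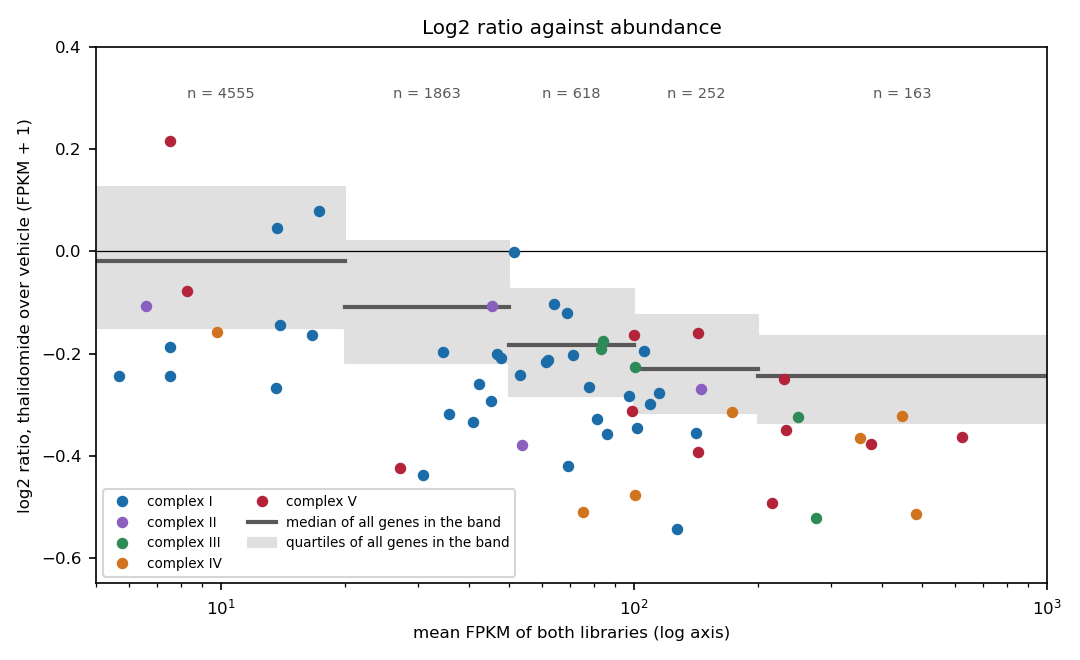
Log2 ratio of thalidomide over vehicle (FPKM + 1) against the mean FPKM of both libraries (log axis); points are the 62 members coloured by complex, and dark lines and grey boxes give the median and quartiles of all genes kept in each band, with their number. The dark lines go down from −0.02 in the lowest band to −0.24 in the highest, and 50 of the 62 points lie below the median of their band.

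Complex I, the NADH dehydrogenase, was lower in 32 of 34 genes, with a median log2 ratio of −0.24, and 8 genes were at least 20% lower. Over all genes kept these shares were 59% and 8.71%. The second share was 10.3% of all genes between 20 and 50 FPKM and 17.0% between 50 and 100 FPKM. The lowest was NDUFA4, on chromosome 2 of the galGal4 assembly (26144942 to 26148789), with 103 FPKM in the thalidomide library and 151 FPKM in the vehicle library (log2 ratio −0.54 ± 0.03). A ± here is the SD propagated from the deposited limits of both libraries, which were read as 2 SD on either side. NDUFA4 carries a complex I name but its protein is found with complex IV. Next came NDUFB4, an accessory subunit of the membrane arm, with 26.1 FPKM with thalidomide and 35.7 with vehicle (−0.44 ± 0.05), and NDUFB9, another one, with 59.2 and 79.6 FPKM (−0.42 ± 0.03). The limits of both libraries lay apart for each of these 3 genes. Lower with limits apart were 25 of the 34, against 26.9% of all genes kept. The most abundant complex I gene, NDUFA1, an accessory subunit of the membrane arm, had 124 FPKM with thalidomide and 159 with vehicle (−0.36 ± 0.06), also with limits apart.

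The 7 core subunits of the matrix arm, which hold the flavin and the iron-sulphur clusters or bind ubiquinone, differed less between the libraries than the accessory subunits of the membrane arm. Their median log2 ratio was −0.16 as deposited and 0.016 once rescaled without the mitochondrial genome. All genes between 50 and 100 FPKM, where most of the 7 lay, had a median of −0.18 as deposited. At least 20% lower were 0 of the 7, which for so few genes is near the 8.71% of all genes kept. NDUFS1, the largest iron-sulphur subunit (chromosome 7, 12077169 to 12090936), had 51.4 FPKM in both libraries (−0.00 ± 0.03), from 6532 inferred fragments with thalidomide and 6072 with vehicle. NDUFS8 had 61.9 FPKM with thalidomide and 66.6 with vehicle (−0.10 ± 0.05), and its limits overlapped like those of NDUFS1. The remaining 5 of the 7 core subunits were lower with limits apart, against 26.9% of all genes kept, and those described here follow. NDUFS3 had 66.0 FPKM with thalidomide and 71.9 with vehicle (−0.12 ± 0.04). NDUFV2, an iron-sulphur subunit, had 15.7 and 17.6 FPKM (−0.16 ± 0.05), and NDUFS7 had 66.1 and 76.2 (−0.20 ± 0.05). NDUFV1, the flavin-bearing subunit that takes electrons from NADH, was the lowest of the core, with 70.9 and 85.4 FPKM (−0.27 ± 0.05).

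Accessory subunits of the matrix arm had a median of −0.21 over 6 genes, from NDUFA2 (89.5 FPKM with thalidomide and 114 with vehicle, −0.35 ± 0.07) to NDUFA5 (13.1 and 14.6 FPKM, −0.14 ± 0.05, limits overlapping). Those of the membrane arm, the part that pumps protons, had a median of −0.29 over 13 genes, and of −0.11 once rescaled without the mitochondrial genome. All 13 were below 0, between −0.44 for NDUFB4 and −0.20 for NDUFB8, where 59% of all genes kept were. Lower with limits apart were 12, against 26.9% of all genes kept. The core genes had a median level of 61.9 FPKM with thalidomide and 66.6 with vehicle and the membrane arm genes 59.2 and 79.6, with 29.8 and 34.0 inferred fragments for each unit of FPKM. Genes were given to the arms from textbook knowledge of the enzyme, and the difference between the arms was not tested. NDUFA9 (−0.33 ± 0.04) and NDUFAB1 (−0.36 ± 0.05), placed at the junction or in both arms, are in neither group, and nor is NDUFA4. Medians with these genes placed in an arm were not computed.

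Assembly factors, proteins that help to build complex I and then leave it, held its only genes above 0. NDUFAF7 had 17.8 FPKM with thalidomide and 16.8 with vehicle (0.08 ± 0.06) and NDUFAF6 had 13.9 and 13.5 FPKM (0.05 ± 0.09), with overlapping limits for both. The remaining 3 were lower: NDUFAF1 with 43.3 FPKM with thalidomide and 49.99 with vehicle (−0.20 ± 0.04), NDUFAF2 with 5.10 and 6.22 (−0.24 ± 0.07) and NDUFAF4 with 6.83 and 8.27 (−0.24 ± 0.11), the last of these with overlapping limits. Over all complexes, the 8 assembly factors and related proteins that the prefixes bring in had a median of −0.13, and the 54 structural subunits had −0.29. Rescaled without the mitochondrial genome, these medians were 0.035 and −0.10. As deposited, 0 of the 8 and 22 of the 54 were at least 20% lower, against 8.71% of all genes kept. Among all genes between 5 and 20 FPKM the share was 6.17%, so for 8 genes 0 is near the background. The assembly and related genes were also less abundant, with a median of 8.62 FPKM with thalidomide and 9.46 with vehicle, against 76.7 and 90.1 for the structural subunits.

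**Figure D3:**
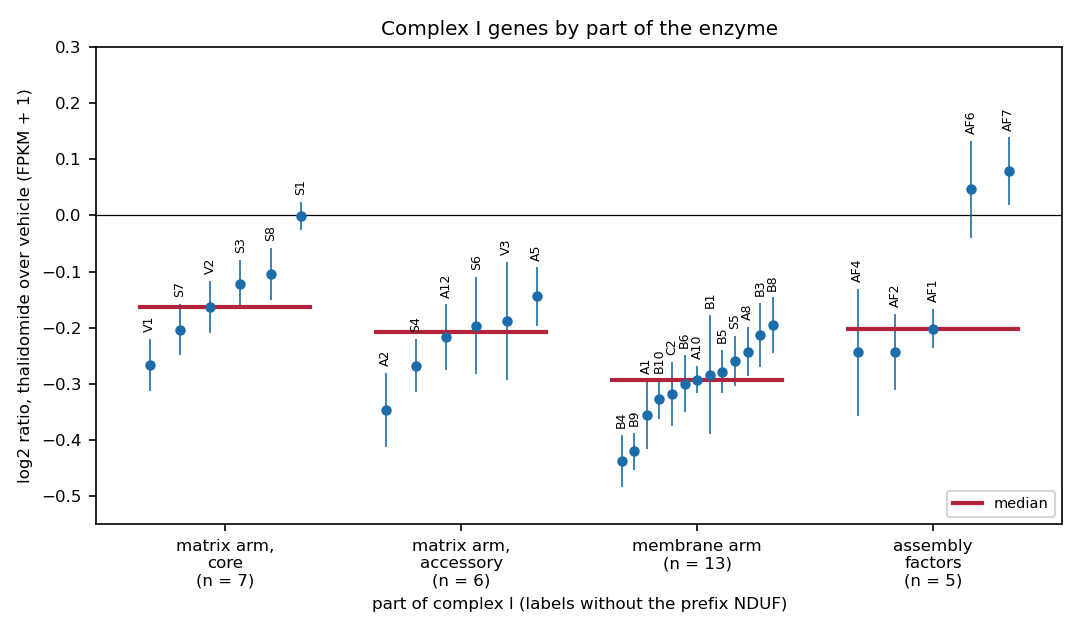
Log2 ratio of thalidomide over vehicle (FPKM + 1) of complex I genes by part of the enzyme; points are genes, vertical bars the error propagated from the deposited limits, and red lines medians (NDUFA4, NDUFA9 and NDUFAB1 are not drawn, since they were given to neither arm, and 1 core subunit is counted in its median but not drawn). The medians are −0.16 for the matrix arm core, −0.21 for its accessory subunits, −0.29 for the membrane arm and −0.20 for the assembly factors, of which NDUFAF6 and NDUFAF7 lie above 0.

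Complex II, succinate dehydrogenase, also works in the citric acid cycle. Its 4 genes had a median log2 ratio of −0.19. SDHD, a membrane anchor, had 46.6 FPKM in the thalidomide library and 60.8 in the vehicle library (−0.38 ± 0.03). SDHC, the other membrane anchor and the most abundant of the 4, had 132 FPKM with thalidomide and 159 with vehicle (−0.27 ± 0.05). SDHA, the flavin-bearing catalytic subunit, had 43.8 and 47.2 FPKM (−0.11 ± 0.03). The limits lay apart, with thalidomide lower, for these 3 of the 4 genes, against 26.9% of all genes kept. The anchors had lower ratios than the catalytic subunit. The assembly factor SDHAF3 had 6.31 FPKM with thalidomide and 6.88 with vehicle (−0.11 ± 0.15), with overlapping limits. SDHB was not analysed here.

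In complex III, the cytochrome bc1 complex, all 5 genes were lower and had limits apart, with a median of −0.23. Of all genes kept, 59% were lower and 26.9% lower with limits apart. Among abundant genes most were lower. The median of all genes was −0.18 between 50 and 100 FPKM, with quartiles of −0.28 and −0.07. Between 100 and 200 FPKM it was −0.23, with quartiles of −0.32 and −0.13. Between 200 and 1000 FPKM it was −0.24, with quartiles of −0.34 and −0.17. UQCR11 and the core proteins, given below, lay near the medians of their bands. UQCR10, a small subunit and the most abundant of the 5, had 227 FPKM with thalidomide and 326 with vehicle (−0.52 ± 0.03). UQCRH, the hinge protein, had 222 and 278 FPKM (−0.32 ± 0.03) and UQCR11 had 92.6 and 109 (−0.23 ± 0.05). The large core proteins lay nearest to 0. UQCRC2 had 78.0 FPKM with thalidomide and 89.2 with vehicle (−0.19 ± 0.03), and UQCRC1 had 79.1 and 89.5 FPKM (−0.18 ± 0.03). At least 20% lower were 2 of the 5, UQCR10 and UQCRH, against 8.71% of all genes kept. UQCR11, also a small subunit, and the core proteins were not. Between 200 and 1000 FPKM, where UQCR10 and UQCRH lay, the share of all genes was 28.8%. The small subunits had a median of 15.8 inferred fragments for each unit of FPKM and the core proteins 66.6. The difference between these groups was not tested. CYC1 and UQCRFS1, which carry the haem and iron-sulphur centres, were not analysed here.

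Complex IV had the lowest median of the 5 complexes, −0.37, with all 7 genes lower and limits apart in the values as deposited. Among all genes kept, 59% were lower and 26.9% lower with limits apart. Complex IV also had the highest median level of the 5, with 154 FPKM with thalidomide and 192 with vehicle. All genes had a median ratio of −0.23 between 100 and 200 FPKM and of −0.24 between 200 and 1000 FPKM. COX7A2L turned to 0.014 once rescaled without the mitochondrial genome. The 6 structural subunits had ratios of −0.31 or less. COX6C, the most abundant, had 399 FPKM with thalidomide and 569 with vehicle (−0.51 ± 0.02). COX7C, on chromosome Z, had 61.8 and 88.5 FPKM (−0.51 ± 0.03), and COX7A2 had 84.1 and 117 FPKM (−0.48 ± 0.03). These 3 small membrane subunits stood lowest in the complex. COX4I1, the regulatory subunit that binds nucleotides, had 309 FPKM with thalidomide and 398 with vehicle (−0.37 ± 0.02). COX6A1 had 397 and 497 FPKM (−0.32 ± 0.03) and COX5A, a subunit on the matrix side, had 154 and 192 (−0.31 ± 0.03). COX7A2L, a related protein that joins complexes into supercomplexes, was 9.22 FPKM with thalidomide and 10.4 with vehicle (−0.16 ± 0.04), the smallest difference among the 7. The partner isoforms COX4I2, COX6A2 and COX7A1 were not analysed here.

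Complex V was lower in 11 of 12 genes, with a median of −0.33, and 6 were at least 20% lower. For all genes kept these shares were 59% and 8.71%. The second share was 23.4% of all genes between 100 and 200 FPKM and 28.8% between 200 and 1000 FPKM. The catalytic F1 head had similar ratios in its 3 genes. ATP5B, the catalytic beta subunit and the most abundant member of all, had 545 FPKM with thalidomide (limits 539 and 551) and 701 FPKM with vehicle (limits 694 and 708), a log2 ratio of −0.36 ± 0.01. ATP5A1, the alpha subunit on chromosome Z (2151456 to 2159196), had 206 FPKM with thalidomide and 262 with vehicle (−0.35 ± 0.02). ATP5A1W, the copy of the same subunit on the female-specific W chromosome, had 23.1 FPKM with thalidomide and 31.3 with vehicle (−0.42 ± 0.04). The W copy made up 10.1% of the FPKM of both copies together with thalidomide and 10.7% with vehicle. The copies resemble each other, so the division of fragments between them is uncertain.

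The rest of the ATP synthase was less uniform. ATP5D, the delta subunit of the central stalk, had 179 FPKM in the thalidomide library and 253 in the vehicle library (−0.49 ± 0.03), the lowest ratio of the complex. ATP5C1, the gamma subunit of the same stalk, had 135 and 151 FPKM (−0.16 ± 0.02), so the stalk genes differed from each other by more than their errors. Both c-ring genes, whose products rotate as protons pass, were lower by nearly the same ratio. ATP5G2 had 124 FPKM with thalidomide and 163 with vehicle (−0.39 ± 0.04), and ATP5G3 had 327 and 425 FPKM (−0.38 ± 0.02). ATP5G1 was not analysed here. The peripheral stalk, which holds the head in place, had a median of −0.25 over ATP5F1 (−0.31 ± 0.02), ATP5J (−0.25 ± 0.03) and ATP5H (−0.16 ± 0.03). ATP5J2, the f subunit in the membrane, was higher, with 8.18 FPKM with thalidomide and 6.90 with vehicle (0.22 ± 0.10), but its limits overlapped and it rested on 358 and 290 inferred fragments. ATP5S, a related protein, had 8.03 FPKM with thalidomide and 8.53 with vehicle (−0.08 ± 0.12), also with overlapping limits.

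**Figure D4:**
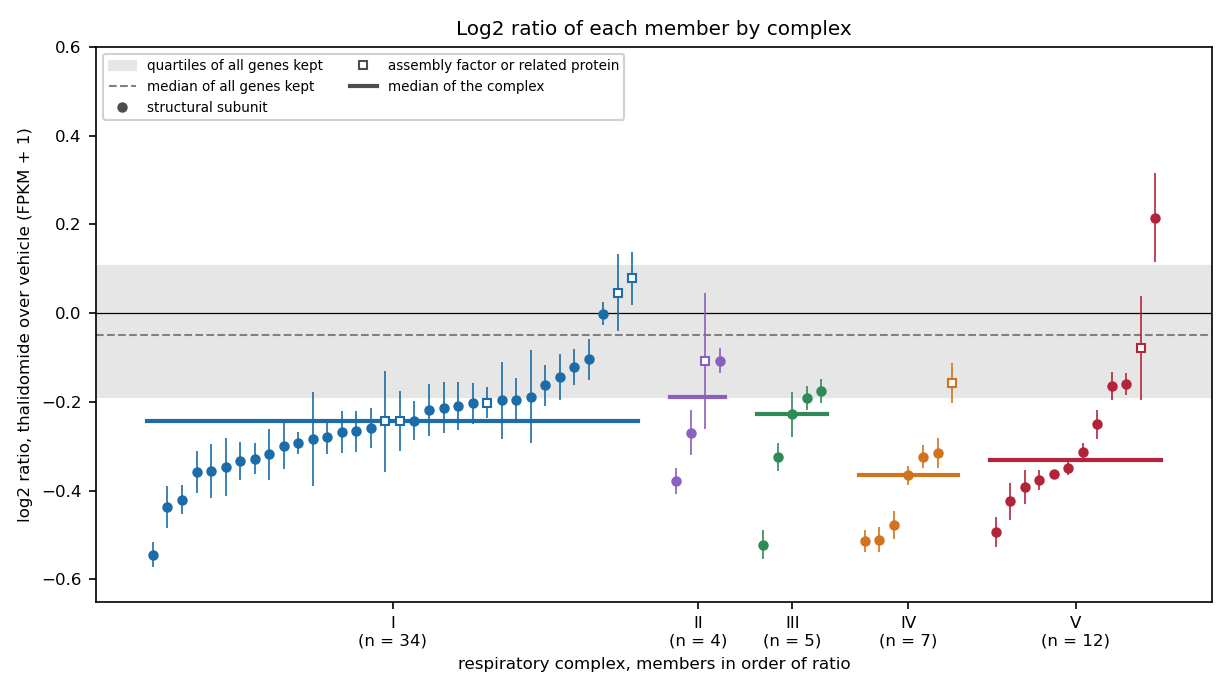
Log2 ratio of thalidomide over vehicle (FPKM + 1) for each member, by complex and in order of ratio; points are genes with the error propagated from the deposited limits, open squares are assembly factors and related proteins, and thick lines are medians of the complexes. The complex medians run from −0.19 (II) to −0.37 (IV), and the dashed line at −0.05 with its grey band gives the median and quartiles of all genes kept.

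The medians of nuclear and of mitochondrially encoded genes of the same complexes lay on opposite sides of 0. In complex I the 34 nuclear genes had a median of −0.24 and the 7 mitochondrially encoded mRNAs 0.26. For complex III these were −0.23 over 5 nuclear genes and 0.25 for cytb, the only mitochondrially encoded subunit. In complex IV they were −0.37 over 7 nuclear genes and 0.10 over COX1 and COX3, and in complex V −0.33 over 12 nuclear genes and 0.33 over ATP6 and ATP8. COX2, the remaining mitochondrially encoded subunit of complex IV, was not matched by name and is in neither this median nor the sums below. Of the 12 mitochondrially encoded mRNAs found by name, 11 were higher with thalidomide, against 41% of all genes kept. Limits lay apart, with thalidomide higher, for 10 of them, against 15.5% of all genes kept. The exceptions were ND3, with 357 FPKM with thalidomide and 373 with vehicle (−0.06 ± 0.03), and COX3, with 4208 and 4138 FPKM (0.02 ± 0.04). In the thalidomide library the 12 mRNAs summed to 30678 FPKM and the 62 nuclear ones to 6064 FPKM, against 26289.7 and 7662 FPKM in the vehicle library. With FPKM totals made equal and the mitochondrial genome kept in them, complexes I to V had nuclear medians of −0.11, −0.048, −0.078, −0.22 and −0.18 in turn, beside 0.082 for all genes kept. With the mitochondrial genome left out of the total these were −0.076, −0.012, −0.040, −0.18 and −0.14, beside 0.11 for all genes kept. The part of the mitochondrial share in the lower nuclear values was not tested further. The mitochondrial mRNAs, under either rescaling, were above 0 in 12 of 12, ND3 included. Below 0 were thus 0 of the 12, against 34.6% and 28.5% of all genes kept. The median of all genes kept then lay above 0 as well.

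**Figure D5:**
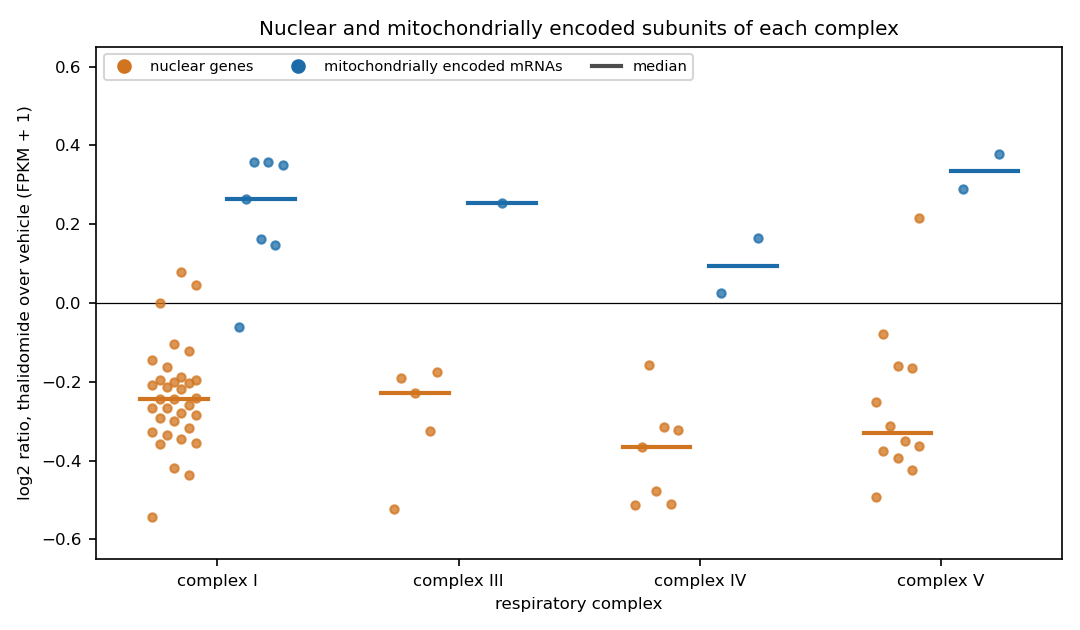
Log2 ratio of thalidomide over vehicle (FPKM + 1) of nuclear genes (orange, left) and mitochondrially encoded mRNAs (blue, right) of the complexes built from both genomes; points are genes and lines medians. All nuclear medians lie between −0.37 and −0.23 and all mitochondrial medians between 0.10 and 0.33, and ND3 is the only mitochondrial point below 0.

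Neighbouring mitochondrial pathways were described from lists drawn up by hand. All 18 genes of the citric acid cycle and pyruvate dehydrogenase that were matched had ratios below 0, with a median of −0.17. Of all genes kept, 59% were below 0. At least 20% lower were 5 of the 18, against 8.71% of all genes kept. IDH2, an isocitrate dehydrogenase and the most abundant, had 156 FPKM with thalidomide and 202 with vehicle (−0.36 ± 0.02). SUCLG2, a succinyl-CoA ligase subunit, was lowest with 11.6 and 16.3 FPKM (−0.46 ± 0.04). DLAT, of the pyruvate dehydrogenase complex, was nearest to 0 with 10.8 and 11.0 FPKM (−0.02 ± 0.05). Rescaled without the mitochondrial genome, 8 of the 18 were lower and 10 higher, with a median of 0.013, so the direction of this list depended on the scaling.

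Electron carriers and further assembly factors were lower in 20 and higher in 6 of the 26 genes matched, with a median of −0.11. Of all genes kept, 59% were lower. At least 20% lower were 2 of the 26, a share near the 8.71% of all genes kept. COX17, the copper chaperone of complex IV, had 34.7 FPKM with thalidomide and 47.2 with vehicle (−0.43 ± 0.08), the lowest of the list. BCS1L, which inserts the iron-sulphur protein into complex III, had 6.09 and 5.00 FPKM (0.24 ± 0.08), the highest. HIGD1A, a hypoxia-induced protein of the inner membrane, was the most abundant with 48.5 and 54.0 FPKM (−0.15 ± 0.04). This list too turned round with the scaling: 8 were lower and 18 higher, with a median of 0.066, once rescaled without the mitochondrial genome.

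Regulators of mitochondrial gene expression went both ways: 9 were lower and 5 higher of the 14 kept, with a median of −0.10. This is near the 59% of all genes kept that were lower. Once rescaled without the mitochondrial genome, 6 regulators were lower and 8 higher, with a median of 0.051. GABPA, the DNA-binding subunit of nuclear respiratory factor 2, had 28.5 FPKM with thalidomide and 33.4 with vehicle (−0.22 ± 0.02), and its partner GABPB1 was lowest of the list with 14.6 and 19.8 FPKM (−0.41 ± 0.04). TFAM, which packages mitochondrial DNA and acts in its transcription, had 35.8 and 41.2 FPKM (−0.20 ± 0.04). The limits lay apart, with thalidomide lower, for these 3 among others, where 26.9% of all genes kept did. PPARGC1B, a coactivator of respiratory genes, was the highest, with 3.35 FPKM with thalidomide and 2.16 with vehicle (0.46 ± 0.09). The limits of PPARGC1B lay apart too, with thalidomide higher, where 15.5% of all genes kept did. Its relative PPARGC1A was under 1 FPKM in both libraries, with 0.771 and 0.763 FPKM. YY1, a transcription factor and the most abundant of the list, had 60.3 and 59.0 FPKM (0.03 ± 0.04). NRF1 was not analysed here.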

How the data were processed

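RNA was sequenced from 2 limb bud samples. STAR 2.4.2a, Cuffdiff, Cufflinks 2.2.1 and bcl2fastq, and the build galGal4, are named without role or order in the submitters' processing notes. The annotation release is not given in the sources used here. Per the file headers, the authors deposited FPKM values for each gene with confidence limits on either side. These are not counts, so no count test was run. The files were joined by gene identifier. Loci of 1 symbol were summed (133 symbols, no member), and genes that reached 1 FPKM in one library or both were kept. The log2 ratio was taken on the FPKM + 1 scale, which understates the ratio of low genes. Its error is an SD that comes from the limits, themselves read as 2 SD. Inferred fragments come from the same reading, which gave a whole number within 0.02 for 88.3% of thalidomide and 87.7% of vehicle loci under 10 fragments. Where assignment is uncertain these numbers are too low. Starts count from 1. List genes were also matched through older symbols in the RefSeq gene table of GRCg7b. The ratio was checked on simulated libraries that shared a common scaling, so the check covers its arithmetic and not the scaling of the real libraries. Python 3.11.15 and pandas 2.3.3 were used.

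The members and lists were chosen with earlier results of these data known. Named genes are, in each complex, the 3 lowest and highest ratios, the most abundant member, core subunits and isoform pairs, and of each further mitochondrial list the lowest, highest and most abundant gene with PPARGC1A, NRF1, GABPA and TFAM. Other genes named were added afterwards. The values of 1 member, which stays in all counts and medians, are not reported here.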

Additional observations from a re-analysis of the deposited data

How the results depend on the processing

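No paired analysis was possible because each treatment has 1 library, and for the same reason no library could be left out. A pseudocount of 0.1 changed no direction of a complex median. A filter of 5 FPKM, no filter, unsummed loci and leaving out loci under 300 bases could not alter any member. All 62 members reached 5 FPKM in a library, none was summed from several loci and none spanned under 300 bases. Centred on all genes, 12 members were at least 20% lower, against 5.71% of all genes. With FPKM totals made equal, the median of all members was −0.12, with −0.11, −0.048, −0.078, −0.22 and −0.18 for complexes I to V in turn. Then 9 members were higher, 6 at least 20% lower (2.58% of all genes) and 29 lower with limits apart (10.4% of all genes). Rescaled without the mitochondrial genome, these medians were −0.082, and −0.076, −0.012, −0.040, −0.18 and −0.14, with 15 members higher, 4 at least 20% lower (2.04% of all genes) and 23 lower with limits apart (7.73% of all genes). Both rescalings raise the thalidomide values against vehicle by construction. With structural subunits only, the medians of complexes II and IV were −0.27 and −0.42, and 1 member was higher. With NDUFA4 counted in complex IV, an alternative chosen after seeing the data, that median was also −0.42. Without replicates, the limits show counting precision alone.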

Other observations

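A pair of further respiratory chain genes appears in the files under symbols outside the prefixes. The gene listed as rbf, which the RefSeq table gives as ATP5I, the e subunit of ATP synthase, had 207 FPKM with thalidomide and 299 with vehicle (log2 ratio −0.53 ± 0.04). C20ORF7, given as the complex I assembly factor NDUFAF5, had 10.1 and 11.9 FPKM (−0.22 ± 0.09).

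The 4 members on chromosome Z, ATP5A1, COX7C, NDUFS4 and NDUFAF2, had ratios between −0.51 and −0.24. Other genes whose symbols mark a W copy were also present in both libraries. The locus of HINTW with the higher level had 259 FPKM with thalidomide and 321 with vehicle (−0.31), and its other locus had 19.0 and 21.2 FPKM (−0.15). SPINW had 3.44 and 4.25 FPKM (−0.24), beside −0.42 for ATP5A1W.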
